A study of Homo sapiens with 6 samples.

Results

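The 6 genes described here encode transcription factors that pattern tissue during development, 3 of them homeodomain proteins (MEIS1, MEIS2 and NKX2-3), 2 zinc finger proteins (GATA6 and SALL1) and 1 T-box protein (TBX3). They were measured in CCD-18Co, an established line of human colon fibroblasts that the submitters also describe as myofibroblasts. The secreted ligand sonic hedgehog (SHH) was added to 3 biological replicates at 1 ug/ml over 72 h, and 3 further replicates were left untreated. The deposited readme calls the second group vehicle, no culture time is recorded for it, and both groups are the same line in medium with bovine serum albumin. Each replicate was hybridised to 1 single-colour Affymetrix array.

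A probe set is a group of probes read together as 1 signal. It was a member if it bears 1 of these gene symbols in the table where the authors list what reached p of 0.05 or less, which is 4.41% of all probe sets. This gave 10 of the 54613 probe sets on the arrays: 3 for TBX3, 2 each for SALL1 and MEIS1, and 1 each for NKX2-3, MEIS2 and GATA6. That table lists 2411 probe sets, of which 2152 carry 1 usable gene symbol, standing for 1645 genes, and no other probe set on the arrays has a name here. Other probe sets of the 6 genes may exist among the unnamed ones. Those are all probe sets with a larger p and the listed ones without 1 usable symbol. The members were thus picked by their p in the comparison of SHH with untreated cells, so the differences below are a description and carry no test. In the authors' deposited table the p of the members lies between 0.00121 for SALL1 and 0.0407 for NKX2-3, the member nearest to the limit. Probe sets just outside the limit could not be named.

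Hedgehog ligands made by the gut epithelium act on the mesenchyme beneath it. They bind the receptor PTCH1 and release GLI transcription factors, which control genes in the receiving cell. Among the factors that mesenchyme uses to define its position, MEIS proteins are TALE homeodomain factors that bind DNA together with PBX and HOX proteins. NKX2-3 is known from the mesenchyme of the midgut and hindgut and of the spleen, GATA6 from endoderm, heart and smooth muscle, TBX3 from limb and mammary gland, and SALL1 from limb and kidney. Mutations of TBX3 cause ulnar-mammary syndrome and those of SALL1 Townes-Brocks syndrome. PTCH1 and GLI1 transcripts, which report hedgehog signalling, were higher in the SHH cultures. The brightest PTCH1 probe set had 8517, 8292 and 9095 in SHH-treated cells, against 1455, 1343 and 1306 in untreated cells. GLI1 had 660.1, 592 and 771 in SHH-treated cells, against 151, 49.7 and 141 in untreated cells. Of 11 core hedgehog genes looked up 5 had a name, and these did not all move the same way. Besides PTCH1 and GLI1, BOC was higher, with mean signals of 1743 with SHH and 1345 untreated. GAS1 was lower, at 998 with SHH and 2386 untreated, and so was GLI3, at 283 and 500.

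Signals of SALL1, TBX3 and NKX2-3 were higher in SHH-treated cells, and signals of MEIS1, MEIS2 and GATA6 were lower. SALL1 had the largest difference, with 1.88 and 2.12 times the untreated level by its 2 probe sets. GATA6 had the largest difference in the other direction, at 54.9% of the untreated level. NKX2-3 had the smallest, at 1.20 times. Folds were taken on the scale log2(signal + 16), where 16 is a constant that damps noise of dim probe sets. In bulk RNA, fewer cells with a transcript and less of it per cell cannot be told apart.

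All 10 probe sets had 3 SHH arrays on one side of the 3 untreated arrays, as 17.3% of all probe sets did (6.97% higher and 10.3% lower with SHH). None of the 10 passed limma's adjusted p of 0.05 over all probe sets, a threshold that 0.123% of all probe sets passed (0.0824% higher and 0.0403% lower). At an unadjusted limma p under 0.05 there were 9 of the 10, against 9.72% of all probe sets. Limma with an intensity trend, which lets the expected variance depend on brightness, called 8 of the 10, all but the dimmest TBX3 probe set and NKX2-3. It called 1.86% of all probe sets (1.01% higher and 0.85% lower). Because p in this contrast chose the members, nothing is read from these counts.

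**Figure D1:**
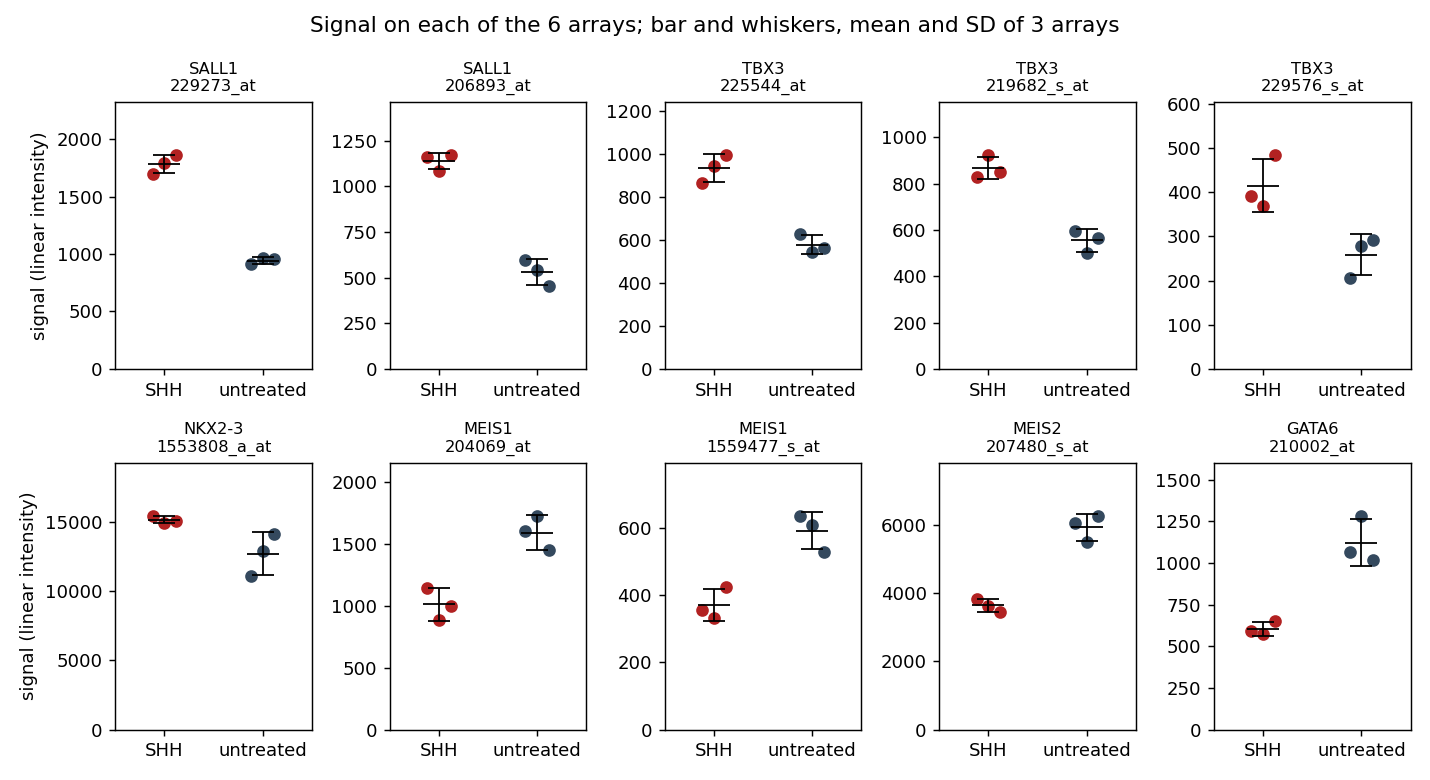
Signal (linear intensity, each vertical axis from 0) of the 10 probe sets in SHH-treated and untreated cells. Points are single arrays, and the bar with whiskers is the mean and SD of 3 arrays; in no panel do the SHH and untreated points overlap, and the narrowest gap relative to its level is that of NKX2-3, between 14943 with SHH and 14161 untreated.

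The RefSeq promoter table (GRCh38.p14, windows from 250 bases before to 50 after a gene's start) holds 4 of the 6 genes in 5 windows, and SALL1 and TBX3 are not in it. The 250 bases before the start are shown for the 3 genes with lower signal and for NKX2-3, the gene with higher signal in the table. They are written 5′ to 3′ on the strand of the gene. Capitals mark the GC box GGGCGG and the CCAAT box, each on either strand, which are general promoter elements and were chosen after the sequences were seen. MEIS1 lies on the plus strand at chr2:66434875-66435124, and the MEIS2 window nearest to the 5′ end on the minus strand at chr15:37099107-37099356. GATA6 lies on the plus strand at chr18:22169339-22169588 and NKX2-3 on the plus strand at chr10:99532692-99532941.
MEIS1: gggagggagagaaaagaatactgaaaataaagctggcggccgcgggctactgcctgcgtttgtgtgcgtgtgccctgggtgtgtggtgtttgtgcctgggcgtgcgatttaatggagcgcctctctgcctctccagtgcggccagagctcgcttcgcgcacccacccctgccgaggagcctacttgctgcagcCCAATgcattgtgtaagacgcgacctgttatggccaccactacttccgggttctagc
MEIS2: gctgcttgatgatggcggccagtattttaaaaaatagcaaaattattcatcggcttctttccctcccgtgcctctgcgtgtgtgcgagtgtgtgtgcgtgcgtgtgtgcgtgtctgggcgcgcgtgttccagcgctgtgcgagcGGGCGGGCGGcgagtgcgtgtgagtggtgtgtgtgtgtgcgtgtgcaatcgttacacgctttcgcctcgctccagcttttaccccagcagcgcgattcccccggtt
GATA6: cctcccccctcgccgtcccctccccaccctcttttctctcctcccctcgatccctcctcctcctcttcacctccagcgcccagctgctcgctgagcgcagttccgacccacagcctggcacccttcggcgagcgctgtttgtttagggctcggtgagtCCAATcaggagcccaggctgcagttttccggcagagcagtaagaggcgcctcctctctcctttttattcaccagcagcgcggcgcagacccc
NKX2-3: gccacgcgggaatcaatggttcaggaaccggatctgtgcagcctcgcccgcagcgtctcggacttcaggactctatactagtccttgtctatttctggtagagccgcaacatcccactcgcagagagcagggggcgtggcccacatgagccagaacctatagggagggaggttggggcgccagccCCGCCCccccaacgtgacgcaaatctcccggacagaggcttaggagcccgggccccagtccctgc

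None of the 5 windows holds the GLI consensus GACCACCCA or its core CCACCCA on either strand. Of all 34943 windows in the table, 0.238% hold the consensus and 9.2% the core, which is part of the consensus. The MEIS motif TGACAG, present in 15.8% of all windows, the GATA motif AGATAA, in 10.4%, and the T-box motif TCACACCT, in 0.982%, are also not in any of the 5. This says only that these letters are not in these windows, which cover little of the sequence that can control a gene. The CCAAT box, held by 34.6% of all windows, is in those of MEIS1, GATA6 and NKX2-3 and in the second MEIS2 window; for NKX2-3 it lies after the start and is not shown. The GC box, held by 44.9%, is in the NKX2-3 window and in the MEIS2 window shown, where 2 copies overlap. GC content of the 250 bases was 59.6% for MEIS1, 58.8% for MEIS2, 64.4% for GATA6 and 63.2% for NKX2-3. Over the whole windows it was 58.3% for MEIS1, 66.7% for GATA6 and 62.7% for NKX2-3. It was 62.7% for the MEIS2 window shown and 53.0% for the second, against a median of 58.7% over all windows.

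SALL1, a zinc finger factor of the spalt family that mostly represses its targets, was covered by 2 probe sets. By the brighter one, 229273_at, its signal was 1699.6, 1789 and 1860.1 in SHH-treated cells, against 911, 963 and 954 in untreated cells. Both groups were tight, with means of 1783 ± 80.4 with SHH and 943 ± 27.8 untreated (SD, n = 3), and the lowest SHH array stood 736 above the highest untreated one. The log2 difference was 0.91 ± 0.10, where ± stands, here and for all log2 differences, for limma's moderated SE, partly borrowed from the variances of other probe sets. The second probe set, 206893_at, had 1159.7, 1085 and 1169.7 in SHH-treated cells, against 596, 542 and 455 in untreated cells. Its untreated arrays were more spread than its SHH arrays, with coefficients of variation of 4.04% with SHH and 13.4% untreated, and its log2 difference was 1.09 ± 0.14. Single pairs of arrays gave SHH-to-untreated ratios between 1.76 and 2.04 for the first and between 1.82 and 2.57 for the second probe set. The difference between the estimates of the 2 probe sets, 0.91 and 1.09, is about the size of their errors.

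TBX3, a T-box factor that chiefly represses transcription, was the only member with 3 named probe sets. The brightest, 225544_at, had 865, 945 and 995 in SHH-treated cells, against 629, 546 and 563 in untreated cells. The second, 219682_s_at, had 828, 922 and 852 in SHH-treated cells, against 596, 501 and 566 in untreated cells. In both, the untreated replicate 1 was the highest of its group and still lay 236 and 232 below the lowest SHH array. The third, 229576_s_at, was the dimmest of the 10, with 392, 369.9 and 484 in SHH-treated cells, against 207, 278 and 292 in untreated cells. Here untreated replicate 1 was the lowest of its group, and the gap between the groups was 78.3. The log2 differences of the 3 were 0.68 ± 0.12, 0.63 ± 0.12 and 0.66 ± 0.18, closer to each other than their errors. Means were 935 ± 65.7 with SHH and 579 ± 43.5 untreated for the brightest probe set (SD, n = 3). For the dimmest they were 415 ± 60.4 with SHH and 259 ± 45.7 untreated (SD, n = 3).

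NKX2-3, an NK homeodomain factor of intestinal and splenic mesenchyme, was the brightest member, and 99.2% of all probe sets were dimmer. Its signal was 15427, 14943 and 15084 in SHH-treated cells, against 11101, 12876 and 14161 in untreated cells. The SHH arrays lay close together, at 15151 ± 249, while the untreated arrays spread over a wider range, at 12712 ± 1537 (SD, n = 3). The lowest SHH array was only 1.06 times the highest untreated one. The log2 difference was 0.26 ± 0.13. It was 0.17 without untreated replicate 1, the lowest array. The 510 probe sets of like brightness, within 0.5 of its mean log2 signal, had a median difference of 0.09 in the same direction. The largest signal on an array was between 30242 and 35610, above that of NKX2-3.

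MEIS1, a TALE homeodomain factor, had 1146, 885 and 998 in SHH-treated cells by its brighter probe set 204069_at, against 1599.7, 1722 and 1444 in untreated cells. The 2 groups did not overlap, and the highest SHH array stood 299 below the lowest untreated one. Means were 1009 ± 131 with SHH and 1589 ± 139 untreated (SD, n = 3), a level of 63.7% and a log2 difference of -0.65 ± 0.14. The second probe set, 1559477_s_at, had 356, 331 and 425 in SHH-treated cells, against 635, 609.7 and 529.6 in untreated cells. Its log2 difference was -0.66 ± 0.14, or 63.5% of the untreated level, so both probe sets gave nearly the same value. SHH replicate 2 was the lowest and untreated replicate 3 the lowest of its group in both probe sets.

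MEIS2, the close relative of MEIS1 in the same family, had 3838, 3639.6 and 3464 in SHH-treated cells, against 6047, 5502 and 6266 in untreated cells. The groups were far apart for their spread, with means of 3647 ± 187 with SHH and 5938 ± 393 untreated (SD, n = 3) and a gap of 1664 between the nearest arrays. The log2 difference was -0.70 ± 0.11, which is 61.6% of the untreated level and within the error of both MEIS1 probe sets. Ratios between single arrays ran from 0.55 to 0.70. In Affymetrix naming the suffix _s_at marks probes shared by several transcripts. The MEIS2 probe set 207480_s_at bears it, as do 1559477_s_at of MEIS1 and 219682_s_at and 229576_s_at of TBX3. Whether probes of 1 MEIS gene also detect the other was not tested.

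GATA6, a zinc finger factor that binds GATA motifs, had 591, 575 and 654 in SHH-treated cells, against 1064, 1282 and 1018 in untreated cells. The groups were well apart, and the gap between the nearest arrays was 365. Means were 607 ± 41.6 with SHH and 1122 ± 141 untreated (SD, n = 3), and the log2 difference was -0.86 ± 0.14. Untreated replicate 2 was the highest, and without it the log2 difference was -0.77. Ratios between single arrays ran from 0.45 to 0.64.

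In order of their log2 difference, by the brightest probe set, the genes were SALL1 (0.91), TBX3 (0.68), NKX2-3 (0.26), MEIS1 (-0.65), MEIS2 (-0.70) and GATA6 (-0.86). MEIS1 and MEIS2 differ by less than the SE of either, and MEIS2 and GATA6 by 0.16, about the size of 1 SE. Levels are not ranked across genes, since signals of different probe sets are not on 1 scale. The median difference of probe sets as bright as a member lay between -0.05 and 0.09 for all 10, against a median of -0.05 over all probe sets. Each of the 10 was brighter than the median probe set, the dimmest of them than 70.0% of all.

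**Figure D2:**
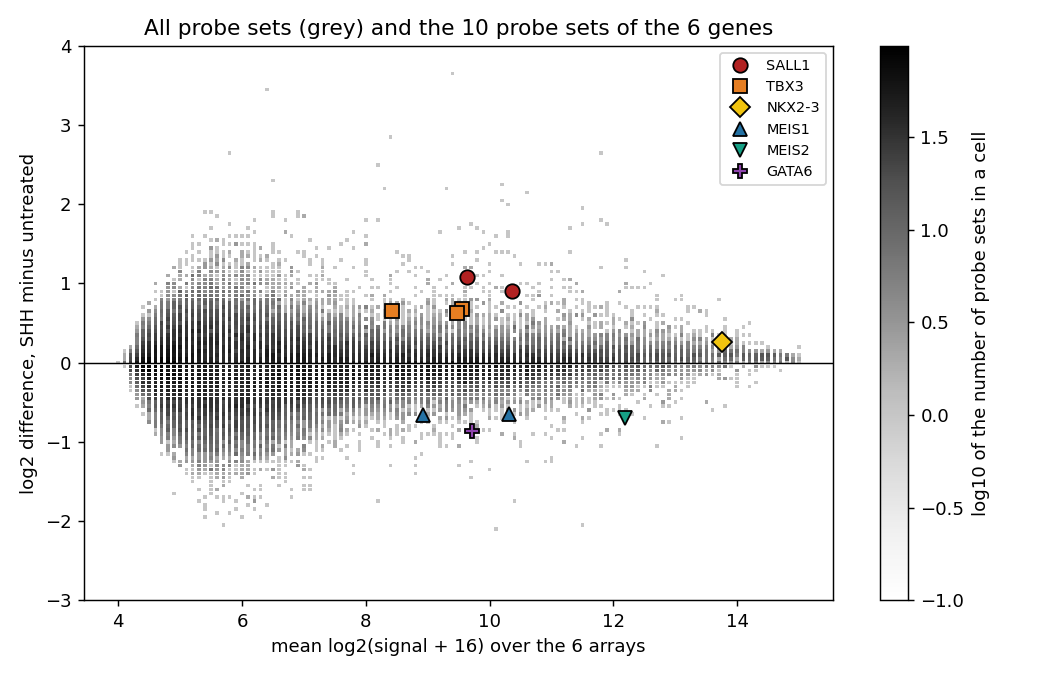
Log2 difference of SHH minus untreated (vertical axis) against mean log2(signal + 16) over the 6 arrays (horizontal axis), with all 54613 probe sets binned in grey by their number and the 10 members as coloured symbols. SALL1 lies at 0.91 and 1.09, the 3 TBX3 symbols between 0.63 and 0.68 and NKX2-3 at 0.26 at the bright end, while MEIS1, MEIS2 and GATA6 lie between -0.86 and -0.65.

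Among the settings tried, only quantile and median scaling could have turned a direction, and under both all 10 probe sets kept theirs. The intensity trend, the replicate block and the filter leave the difference itself as it is, and groups that do not overlap cannot change sides under another pseudocount or when an array is left out. The ranges below are over all settings. SALL1 ranged from 0.87 to 0.99 and from 0.98 to 1.17 by its 2 probe sets. The 3 TBX3 probe sets ranged from 0.51 to 0.76. NKX2-3 ranged from 0.17 to 0.34. The 2 MEIS1 probe sets ranged from -0.75 to -0.56, MEIS2 from -0.75 to -0.61 and GATA6 from -0.93 to -0.77.

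**Figure D3:**
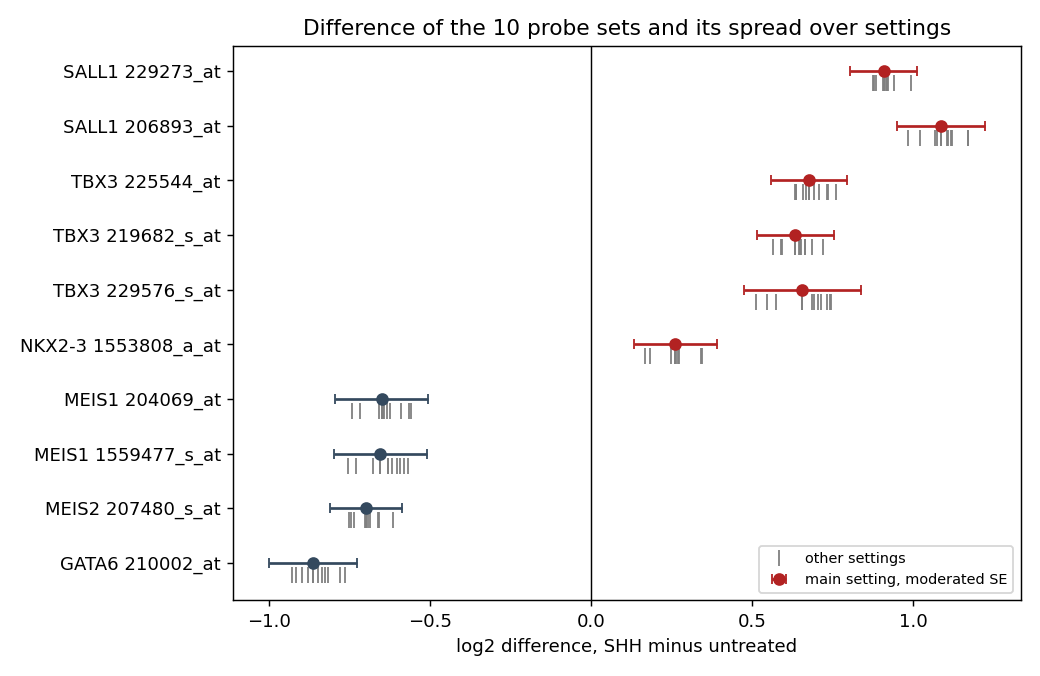
Log2 difference of SHH minus untreated for the 10 probe sets (horizontal axis). Points with whiskers are the main value and limma's moderated SE, red where higher and dark blue where lower with SHH, and grey ticks are the values under the other settings; all ticks of a probe set lie on the same side of 0, and those of NKX2-3 reach down to 0.17.

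Related factors were read from lists of 145 further patterning genes, which leave out the core hedgehog genes. A name was at hand for 15 of them, and by the brightest named probe set 6 were higher and 9 lower, with a median log2 difference of -0.30, against -0.05 over all probe sets and 0.27 over all named probe sets. Limma's adjusted threshold was passed by 2 of the 15, both higher, against 0.123% of all probe sets, and the intensity trend called 7, against 1.86% of all. All were named by their p in this contrast, as the members were, so the counts describe which names are at hand and nothing more is read from them. Of the 5 core hedgehog genes with a name, named in the same way, PTCH1 and GAS1 passed limma's adjusted threshold. GLI1, BOC and GLI3 did not. Of the other TALE homeobox genes listed 3 of 15 had a name, and all 3 were lower: PBX3, of the family that partners MEIS, PKNOX2 of a family close to MEIS, and MKX (mohawk), a factor of tendon. None of them passed limma's adjusted threshold. PBX3 had 1091, 976 and 1214 in SHH-treated cells, against 1611, 1491 and 1493 in untreated cells. Its log2 difference was -0.48 ± 0.13. PKNOX2 lay at -0.45 ± 0.10 and MKX at -0.55 ± 0.14. With MEIS1 and MEIS2, the 5 TALE genes given here were thus all lower with SHH, and the other 12 listed have no name here.

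No other GATA, SALL, T-box or NK homeobox gene of the lists had a name (0 of 7, 3, 16 and 15 genes), and none of the 42 HOX and CDX genes. HOX proteins are classical DNA-binding partners of MEIS. A gene without a name can still be on the arrays and may differ little or not at all.

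Among 47 other mesenchymal factors 12 had a name, 6 higher and 6 lower. FOXF2 and FOXL1, forkhead factors of gut mesenchyme, rose and passed limma's adjusted threshold. The log2 difference of FOXF2 was 1.32 ± 0.11. FOXL1 had 166, 97.0 and 121 in SHH-treated cells, against 4.05, 4.92 and 12.2 in untreated cells. These untreated signals lie below the constant of 16, which therefore sets the size of its plotted difference, and no fold is given. Neither passed when any 1 array was left out, and no other probe set on the arrays did so either. The other 10 did not pass. OSR2, an odd-skipped zinc finger factor, had 609.2, 565 and 617 in SHH-treated cells, against 1192, 1096 and 1339 in untreated cells. At -0.995 ± 0.12 its log2 difference exceeded that of GATA6. EBF1, a helix-loop-helix factor, was dim in both groups, at 7.01, 2.13 and 5.29 in SHH-treated cells, against 36.6, 25.9 and 42.3 in untreated cells. MYOCD (myocardin), a coactivator of smooth muscle genes, had 7344, 9280.5 and 9033 in SHH-treated cells, against 6709, 5784 and 5371 in untreated cells, a log2 difference of 0.52 ± 0.15. The SHH signals of EBF1 also lie below the constant of 16, so the size of its plotted difference depends on it.

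**Figure D4:**
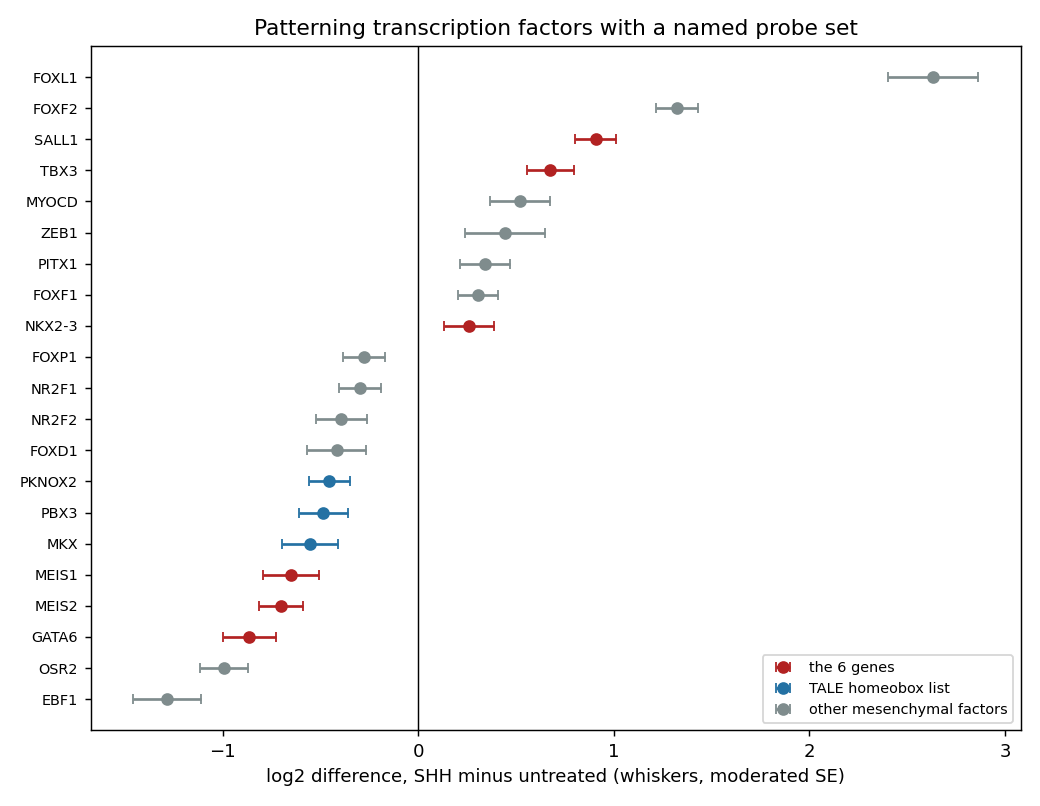
Log2 difference of SHH minus untreated with limma's moderated SE for the 6 genes (red), the other TALE homeobox genes with a name (blue) and other mesenchymal factors with a name (grey), by the brightest named probe set. FOXF2 lies above SALL1, the 3 TALE genes lie between -0.55 and -0.45, and OSR2 lies below GATA6; FOXL1 and EBF1 are dim, and their places depend on the constant of 16.

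The genes closest to each member in pattern were sought among the 1504 other named genes brighter than the median. Likeness was the root mean square distance over the 6 arrays between log2 values that had each been centred on their own mean, with smaller values more alike. PTGS1, a cyclooxygenase, was closest to SALL1 at 0.02, followed by the pentose phosphate enzyme PGD at 0.04 and the transporter ABCC4 at 0.04. PTGS1 had a log2 difference of 0.93 ± 0.10. AMPD3 (an AMP deaminase), SARM1 (an NAD-cleaving enzyme) and the transcription factor ETS2 were closest to TBX3, at 0.05, 0.05 and 0.06. CAV1 (caveolin), the small GTPase RHOA and ZFAND5 were closest to NKX2-3, each at 0.03. LRCH2, a gene listed as MGC14141 and SGCD, a sarcoglycan, were closest to MEIS1, at 0.06, 0.07 and 0.08. PLPP3, a lipid phosphate phosphatase, was closest to MEIS2 at 0.03, with the immediate early factor EGR1 and LRRN2 at 0.05. FGL2 (a fibrinogen-like protein), JCAD and the diacylglycerol kinase DGKI were closest to GATA6, at 0.06, 0.07 and 0.08. Among the members themselves the closest were SALL1 and TBX3 at 0.14, MEIS1 and MEIS2 at 0.16 and MEIS1 and GATA6 at 0.16. There are only 5 other members against 1504 other genes, so nothing follows from members lying farther apart. The 1504 genes were all named by their p in this contrast, as the members were. Nothing is therefore read from how close they lie to a member. The measure follows the difference between the groups for the most part, since the spread within a group is smaller. This holds least for NKX2-3, whose untreated arrays had an SD of 0.18 on the log2 scale against a difference of 0.26.

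Median signals of the 6 arrays lay between 94.4 and 111 and their trimmed means between 498.1 and 498.2. Pairs of arrays correlated between 0.96 and 0.97 over probe sets on the log2 scale, and no array was a copy of another. Markers of the labelled cell type could be read only where a probe set had a name. Names were given by p in this contrast, so markers that differ little are missing and nothing is read from the counts. Of 10 fibroblast markers 4 had a name (COL3A1, FAP, DCN and PDGFRB), all lower with SHH, between -0.93 and -0.46. None passed limma's adjusted threshold, while the intensity trend called FAP and PDGFRB, against 1.86% of all probe sets. COL3A1 and DCN each had 1 named probe set, and others of these genes may be unnamed. Mean signals were 243 with SHH and 395 untreated for COL3A1, and 240 and 460 for DCN. Of 7 smooth muscle markers 2 had a name, the myosin MYH11 at 0.94, which the trend called, and CNN1 at -0.29. Both markers of interstitial cells of Cajal had one, KIT at -0.44, which the trend called, and ANO1 at 0.40. The epithelial keratin KRT18 lay at -0.42 and the neuronal marker UCHL1 at 0.67, both called by the trend, and the monocyte marker CD14 at 0.73; each was the 1 named member of a list of 7, 5 and 4 genes in this order. None of these passed limma's adjusted threshold, and none of 5 endothelial markers had a name. The part of such shifts in the members' values was not tested.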

How the data were processed

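RNA of 6 cultures was copied into biotin-labelled cRNA and hybridised to Affymetrix arrays, per the labels' protocols, and groups and replicate numbers come from the sample titles. The authors' deposited value table holds 1 linear intensity per probe set and array; arrays appear scaled to a common trimmed mean, and no method of reading, summary or scaling is given in the sources used here. The authors' deposited table of a Cyber-T comparison, per the deposited readme, gives a log2 fold change and a p-value per probe set; per the file headers the fold runs untreated minus SHH, opposite to the differences printed here. All 2411 probe sets at p at or under 0.05 carry annotation columns, and these were used for names. A name was taken where the array's and the authors' symbol gave 1 gene and did not disagree (54 did), and old symbols were updated through RefSeq's synonyms (GRCh38.p14).

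Differences of SHH minus untreated were fitted with limma 3.58.1 under R 4.3.3 (lmFit, eBayes, 2-sided, Benjamini-Hochberg over 54613 probe sets, threshold 0.05) on log2(intensity + 16), with no filter. The fit was tested on simulated data with independent noise, where the planted changes were larger than those of most members. A gene outside the 6 is given by its brightest named probe set. Named are all probe sets of the 6 genes, PTCH1 and GLI1, every named gene of a related list with 5 or fewer and otherwise the 5 with the smallest p, and the 3 genes most alike in pattern; OSR2, EBF1 and MYOCD come under this rule, and the marker genes named were added after their values were seen. A gene of the related lists is not reported here and is left out of their counts. Members and lists were chosen with earlier results of these data known. Replicate numbers are shared by both groups, but no source says that a number stands for a common day, and batches are not recorded. Sequences come from the RefSeq promoter table; motifs were matched exactly on both strands with Python 3.11.15 and pandas 2.3.3. Alternatives were other pseudocounts, scalings, a filter, an intensity trend, a replicate block and leaving out each array.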

Additional observations from a re-analysis of the deposited data

How the results depend on the processing

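Over all probe sets the count past limma's adjusted threshold was 67 (45 higher, 22 lower). It was 0 with a pseudocount of 1, 295 with 64, 34 after centring each array on its median (32 higher, 2 lower), 66 after quantile normalization, 558 among probe sets above the median signal only and 1014 with an intensity trend. It was 0 with the replicate block (4746 by unadjusted p under 0.05) and 0 with any 1 array left out (4411 to 5180). Of the 10 probe sets of the 6 genes, limma called 0, against 3 with a pseudocount of 64, 6 among probe sets above the median signal and 8 with the intensity trend. The moderated SE of all 10 was smaller under each of these alternatives, and the filter also leaves fewer probe sets to adjust over. The cause of the change in calls was not tested. The replicate block called 0 of the 10, with 9 at an unadjusted p under 0.05, as without it. Deviations of same-numbered arrays from their group means correlated at 0.01, 0.02 and -0.01 over probe sets. Arrays of unlike number in the 2 groups correlated between -0.03 and 0.02. No pairing by number is thus seen over all probe sets, but one that touches few genes could not be seen this way. All 10 differences kept their direction under both scalings, the only settings that could have turned one. The SALL1 probe set 229273_at moved by more than its replicate SD, to 0.99 with that centring, and SALL1 as the mean of its 2 probe sets came to 0.996. The 15 related factors with a name stayed at 6 higher and 9 lower in all settings but the filter, which left 5 and 8. With 3 arrays a group the number of arrays limits the precision, and the value of NKX2-3 moved most for its size when 1 array was left out, while that of the dimmest TBX3 probe set had the wider range on the log2 scale, 0.51 to 0.74.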
